A study of Homo sapiens with 12 samples.

Results

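The MAP kinase phosphatases examined here are 8 dual specificity phosphatase genes, DUSP1, DUSP2, DUSP4, DUSP5, DUSP6, DUSP7, DUSP10 and DUSP16, taken by gene symbol from a count table of 54628 genes. All 8 have a row in the table, and 7 of them passed the filter on low counts, which 15492 genes passed in all. DUSP4 did not pass. The libraries came from HUDEP-2 cells, an immortalized human erythroid precursor line that carries the receptor tyrosine kinase Kit. All cells carried a lentiviral dCas9-KRAB construct, a catalytically inactive Cas9 fused to a transcriptional repressor that silences the site its guide RNA points to, and were sorted as a pool for the GFP it also encodes. The guide was either a scrambled control (sgControl) or directed to a site upstream of EGR1 (sgEGR1). All cells were deprived of growth factors for 5 h and then received PBS or stem cell factor (SCF, the Kit ligand, 50 ng/mL) for 1 h. This gives 4 groups of 3 libraries, namely sgControl PBS, sgControl SCF, sgEGR1 PBS and sgEGR1 SCF.

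MAP kinases (ERK, JNK and p38) are switched on when a kinase phosphorylates a threonine and a tyrosine in their activation loop, and MAP kinase phosphatases switch them off by removing both phosphates. Many of these phosphatases are themselves transcribed in response to the kinases they oppose, so that their mRNA is a classical readout of negative feedback. DUSP1, DUSP2, DUSP4 and DUSP5 encode inducible nuclear enzymes, and among them DUSP5 acts selectively on ERK. DUSP6 and DUSP7 encode cytoplasmic enzymes that prefer ERK. DUSP10 and DUSP16 encode enzymes that prefer JNK and p38. In erythroid precursors, ERK is activated downstream of Kit and SCF.

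The guide sets the groups apart, and the study lists a sequence under the name sgEGR1. The library labels name the guide without a sequence, so whether these libraries carried the listed sequence was not tested. The listed sequence had 1 exact match on the assembled chromosomes of hg38, at chr5:138464830-138464849 on the plus strand. This match ends 630 bases before the annotated start of EGR1 and is followed by the PAM CGG. The study describes the targeted element as lying farther upstream of EGR1, and this discrepancy was not resolved.
sgEGR1: ggatgacagcgatagaaccc

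The promoters of 3 members that rose after SCF, and of DUSP1, whose level differed most between replicate numbers, are shown as the 250 bases before the annotated start, read 5′ to 3′ on the strand of the gene (RefSeq, GRCh38.p14). Capitals mark matches on either strand to TGACGTCA, the full cyclic AMP response element (CRE), or to its left part TGACG, which the full element also contains.
DUSP1 (chr5:172771196-172771445, minus strand): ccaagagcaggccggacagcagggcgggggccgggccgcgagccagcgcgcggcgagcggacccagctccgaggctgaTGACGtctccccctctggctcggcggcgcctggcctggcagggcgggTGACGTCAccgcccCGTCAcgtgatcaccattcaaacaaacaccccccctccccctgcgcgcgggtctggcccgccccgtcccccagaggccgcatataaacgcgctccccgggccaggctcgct
DUSP2 (chr2:96145441-96145690, minus strand): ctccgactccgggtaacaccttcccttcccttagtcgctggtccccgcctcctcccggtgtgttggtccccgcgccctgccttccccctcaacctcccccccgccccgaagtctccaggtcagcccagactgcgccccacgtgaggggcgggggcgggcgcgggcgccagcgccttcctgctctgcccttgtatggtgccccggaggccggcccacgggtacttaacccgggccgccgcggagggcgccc
DUSP6 (chr12:89352502-89352751, minus strand): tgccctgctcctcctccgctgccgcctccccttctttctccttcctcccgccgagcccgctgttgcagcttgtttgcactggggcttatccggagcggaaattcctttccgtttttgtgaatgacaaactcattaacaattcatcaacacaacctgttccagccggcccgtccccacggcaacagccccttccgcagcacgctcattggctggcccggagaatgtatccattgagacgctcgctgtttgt
DUSP7 (chr3:52056572-52056821, minus strand): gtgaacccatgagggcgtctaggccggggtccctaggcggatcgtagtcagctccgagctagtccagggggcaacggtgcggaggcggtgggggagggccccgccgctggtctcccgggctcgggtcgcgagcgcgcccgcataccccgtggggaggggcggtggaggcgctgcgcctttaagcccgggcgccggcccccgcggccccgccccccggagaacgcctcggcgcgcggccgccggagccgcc

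RefSeq promoters of 6 of the 8 members were searched, with 7 start sites because DUSP10 has an additional one. DUSP4 was left out of the search, and no RefSeq promoter of DUSP5 was available. The letters searched on both strands were TGACGTCA, TGACG, the AP-1 letters TGANTCA, the EGR letters GCGTGGG, the ETS letters CCGGAA, and the CArG box bound by serum response factor. The DUSP1 promoter held the full CRE at positions -125 to -118 from the start and separate TGACG matches at -172 to -168 and -111 to -107. Over all 35116 promoters of the same length, 1.65% held the full CRE and 21.2% held TGACG. The other 6 windows held none of the letters searched, which over all promoters were present in 6.57% (AP-1), 6.19% (EGR), 14.5% (ETS) and 1.16% (CArG box). These matches describe the letters in the windows and do not show binding.

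Library totals ranged from 23.5 to 32.04 megacounts. A count of 3, taken here as the limit of detection, corresponded to 0.0937 to 0.128 CPM (counts relative to library size, scaled by TMM factors), and this limit covers counting error only. The erythroid identity of the line was checked with 10 marker genes. All 10 were above 1 CPM on average, and together they held 6340 to 7133 CPM per library. Of this sum TFRC held 3521 CPM on average, and HBG1 ranged from 0 to 166 CPM between libraries. The summed markers of T cells, B cells, monocytes and granulocytes, and fibroblasts and endothelium did not exceed 0.719 CPM in any library. Of the megakaryocyte markers PF4, GP9 and PPBP were at 0 in all libraries, and ITGA2B held 12.01 to 35.2 CPM. EGR1 served as the check of the guide. It held 5.99 to 10.9 CPM in sgControl PBS, 0.977 to 2.04 CPM in sgEGR1 PBS and 171 to 239.5 CPM in sgControl SCF. The libraries labeled sgEGR1 SCF held 40.4, 57.4 and 203.6 CPM. The library labeled sgEGR1 SCF replicate 3 therefore goes against its label, and the fitted differences of the members that rest on it are also given without it. Replicate 1 of every group also stood apart from replicates 2 and 3, with 26.6% of all genes tested called between them, so that the SCF responses of the members are also given from replicates 2 and 3 only.

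The members differed widely in level before stimulation. Because longer transcripts collect more reads, levels of different genes are compared as CPM per kilobase of exon (GENCODE v44). All exons of DUSP7 together cover 5669 bases, against 3361 in its longest transcript. Scaling by transcript length would raise DUSP7 relative to the other tested members, so its place beside DUSP10, DUSP2 and DUSP16 depends on the length used. In sgControl PBS, DUSP1 was the highest at 14.7 ± 3.65 CPM per kilobase (SD, n = 3), followed by DUSP10 (1.598 ± 0.418), DUSP2 (1.28 ± 0.203), DUSP7 (1.19 ± 0.0802), DUSP16 (1.10 ± 0.268), DUSP6 (0.743 ± 0.109) and DUSP5 (0.270 ± 0.0480). The libraries of DUSP1 did not overlap those of the next gene, and those of DUSP6 did not overlap those of DUSP5, with an exact two-sided permutation p of 0.1 for each, the smallest that 3 against 3 values allow. The ranges of DUSP10, DUSP2, DUSP7 and DUSP16 overlapped from each to the next. DUSP6 lay below DUSP10, DUSP2 and DUSP7 without overlap and overlapped only DUSP16 among them. In sgControl SCF the order read DUSP1 (17.2 ± 7.69 CPM per kilobase), DUSP2 (6.11 ± 2.59), DUSP6 (3.91 ± 0.698), DUSP7 (1.82 ± 0.0256), DUSP10 (1.77 ± 0.264), DUSP16 (1.22 ± 0.212) and DUSP5 (0.692 ± 0.117). DUSP2 and DUSP6 overlapped each other and stood above DUSP7 without overlap between DUSP6 and DUSP7. In sgEGR1 SCF the order of the 7 genes was the same. In sgEGR1 PBS, DUSP1 again led at 14.0 ± 4.37 CPM per kilobase and DUSP5 was again the lowest at 0.155 ± 0.0111.

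**Figure D1:**
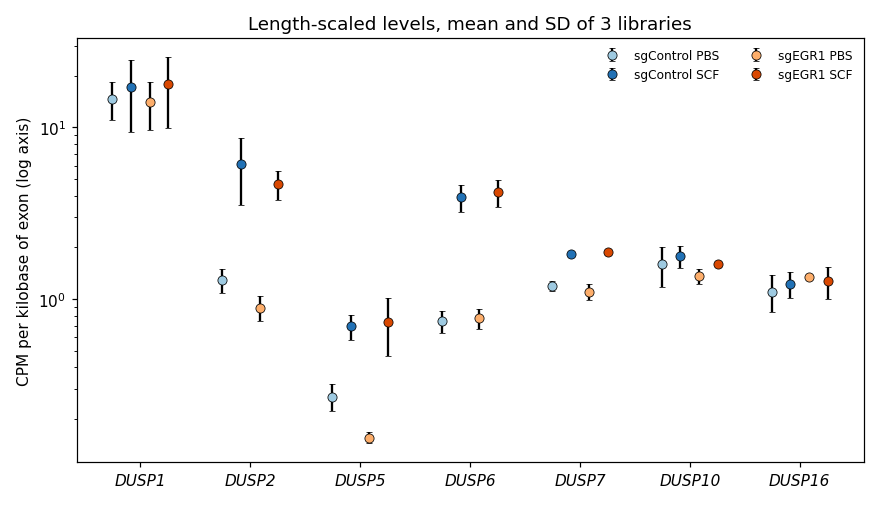
Level of each of the 7 tested members in CPM per kilobase of exon (vertical axis, logarithmic) in the 4 groups, as the mean and SD of 3 libraries. DUSP1 lies above all others and DUSP5 is the lowest in each group. In the SCF groups, the means of DUSP2 and DUSP6 lie above those of DUSP7, DUSP10 and DUSP16.

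To evaluate what acute Kit stimulation does to these transcripts, SCF was compared with PBS under each guide. DUSP2, DUSP5, DUSP6 and DUSP7 rose under both guides, by 4.75-, 2.55-, 5.25- and 1.53-fold in sgControl cells and by 5.28-, 4.73-, 5.43- and 1.70-fold in sgEGR1 cells. DUSP1, DUSP10 and DUSP16 did not pass the test under either guide. Thus 4 of the 7 tested members were called higher and 0 lower in each comparison (edgeR quasi-likelihood test, Benjamini-Hochberg adjusted p under 0.05 over all genes tested), where 2.89% of all genes tested were called and 2.12% were called higher in sgControl cells, and 2.59% and 1.81% in sgEGR1 cells. The median log2 fold change of the 7 members was 0.61 in sgControl cells and 0.76 in sgEGR1 cells, against -0.006 and -0.00048 over all genes tested. In bulk RNA, a change in the share of cells that express a gene and a change in RNA per cell cannot be told apart.

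**Figure D2:**
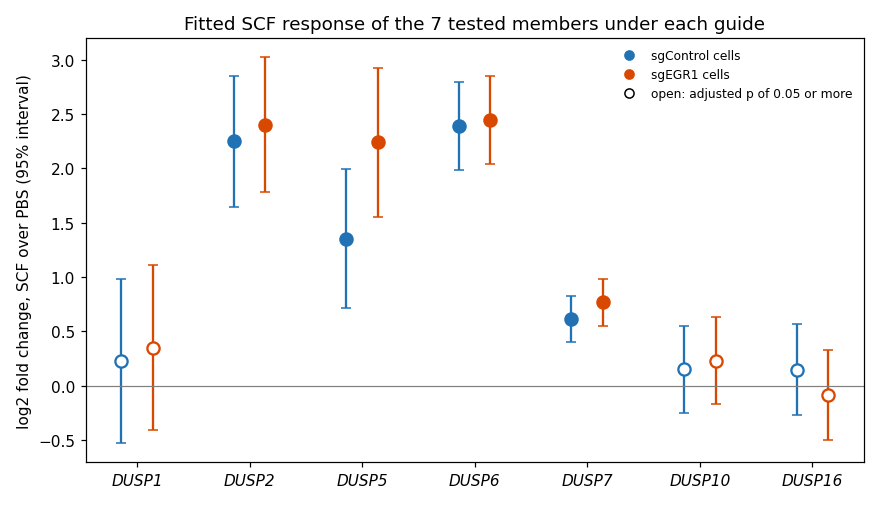
Fitted log2 fold change of SCF over PBS (vertical axis) for the 7 tested members in sgControl and sgEGR1 cells, with 95% intervals. Filled points have an adjusted p under 0.05. DUSP2, DUSP5, DUSP6 and DUSP7 lie above 0 under both guides, and the intervals of DUSP1, DUSP10 and DUSP16 include 0.

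DUSP6 (chromosome 12, 89347235 to 89352501 on the minus strand of GRCh38, ENSG00000139318.8), the ERK-selective cytoplasmic phosphatase, had the largest response in sgControl cells. It held 3.22, 2.40 and 2.99 CPM in sgControl PBS replicates 1, 2 and 3 and 12.01, 16.97 and 16.3 CPM in sgControl SCF. In sgEGR1 cells it held 3.41, 2.94 and 2.62 CPM after PBS and 12.8, 17.7 and 18.1 CPM after SCF. All 6 SCF libraries were above all 6 PBS libraries, and replicate 1 was the lowest SCF library under both guides. The log2 fold change was 2.39 (SE 0.186, edgeR adjusted p 7.25e-05) in sgControl cells and 2.44 (SE 0.186, edgeR adjusted p 5.02e-05) in sgEGR1 cells, which ranked 5 among all genes by p-value in both comparisons. From replicates 2 and 3 only, it was 2.63 and 2.69 (edgeR adjusted p 2.91e-06 and 2.01e-06). Without the library labeled sgEGR1 SCF replicate 3, the response in sgEGR1 cells was 2.36 (edgeR adjusted p 0.000377). A long noncoding RNA on the opposite strand, ENSG00000274021, overlaps 1105 of the 3859 exonic bases of DUSP6, so that reads of the overlapping part can be assigned only where strand is used. The methods describe strand-specific libraries, the labels name another kit, and the use of strand in counting was not stated.

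DUSP2 (chromosome 2, 96143169 to 96145440 on the minus strand, ENSG00000158050.5) encodes an inducible nuclear phosphatase best known from activated lymphocytes. It held 2.82, 2.05 and 2.56 CPM in sgControl PBS and 17.5, 9.73 and 8.14 CPM in sgControl SCF. In sgEGR1 cells it held 2.04, 1.53 and 1.57 CPM after PBS and 10.7, 7.25 and 9.12 CPM after SCF. SCF and PBS libraries did not overlap, and in contrast to DUSP6, replicate 1 was the highest SCF library under both guides. After SCF the log2 fold change was 2.25 (SE 0.276, edgeR adjusted p 0.00105) in sgControl cells and 2.40 (SE 0.286, edgeR adjusted p 0.000861) in sgEGR1 cells. From replicates 2 and 3 only, it was 1.95 and 2.40 (edgeR adjusted p 0.000368 and 0.000114). Without the library labeled sgEGR1 SCF replicate 3 it was 2.40 in sgEGR1 cells (edgeR adjusted p 0.00451).

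DUSP5 (chromosome 10, 110497907 to 110511533 on the plus strand, ENSG00000138166.6), the nuclear phosphatase selective for ERK, was the lowest tested member, with 10 to 80 counts per library. It held 0.759, 0.748 and 0.543 CPM in sgControl PBS and 1.72, 2.07 and 1.48 CPM in sgControl SCF. In sgEGR1 cells it held 0.426, 0.373 and 0.384 CPM after PBS and 1.14, 1.98 and 2.50 CPM after SCF. The SCF libraries were above the PBS libraries under both guides without overlap. After SCF the log2 fold change was 1.35 (SE 0.294, edgeR adjusted p 0.0312) in sgControl cells and 2.24 (SE 0.314, edgeR adjusted p 0.00245) in sgEGR1 cells. The sgControl call was close to the threshold and held in 12 of 20 alternatives. With a term for replicate 1 in the model, its edgeR adjusted p was 0.0118, where 8.32% of all genes tested were called. It was lost in the following fits without a single library. The edgeR adjusted p was 0.0647, 0.0870 and 0.126 without sgControl PBS replicate 1, 2 or 3, 0.0761, 0.109 and 0.0540 without sgControl SCF replicate 1, 2 or 3, and 0.0507 without sgEGR1 SCF replicate 2. From replicates 2 and 3 only, the log2 fold changes were 1.45 and 2.55 (edgeR adjusted p 0.0318 and 0.00262), and without the library labeled sgEGR1 SCF replicate 3 the response in sgEGR1 cells was 1.98 (edgeR adjusted p 0.0106). DUSP5P1, an annotated pseudogene named after DUSP5, held 198 to 290 counts per library and was not called under either guide (log2 fold change -0.30 and -0.18, edgeR adjusted p 0.320 and 0.616). Of the 8 members, only DUSP6 shared stretches of 50 bases with another gene in GENCODE v44 transcripts, its opposite-strand neighbor.

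DUSP7 (chromosome 3, 52048919 to 52056571 on the minus strand, ENSG00000164086.10), the close relative of DUSP6, had a smaller response with little spread. It held 7.08, 6.97 and 6.24 CPM in sgControl PBS and 10.2, 10.5 and 10.3 CPM in sgControl SCF. In sgEGR1 cells it held 5.66, 6.97 and 6.14 CPM after PBS and 10.3, 10.7 and 10.99 CPM after SCF. All SCF libraries were above all PBS libraries. After SCF the log2 fold change was 0.61 (SE 0.0977, edgeR adjusted p 0.00578) in sgControl cells and 0.76 (SE 0.0982, edgeR adjusted p 0.00141) in sgEGR1 cells. From replicates 2 and 3 only, it was 0.65 and 0.73 (edgeR adjusted p 0.0129 and 0.00716). Without the library labeled sgEGR1 SCF replicate 3 the sgEGR1 response was 0.74 (edgeR adjusted p 0.00867).

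**Figure D3:**
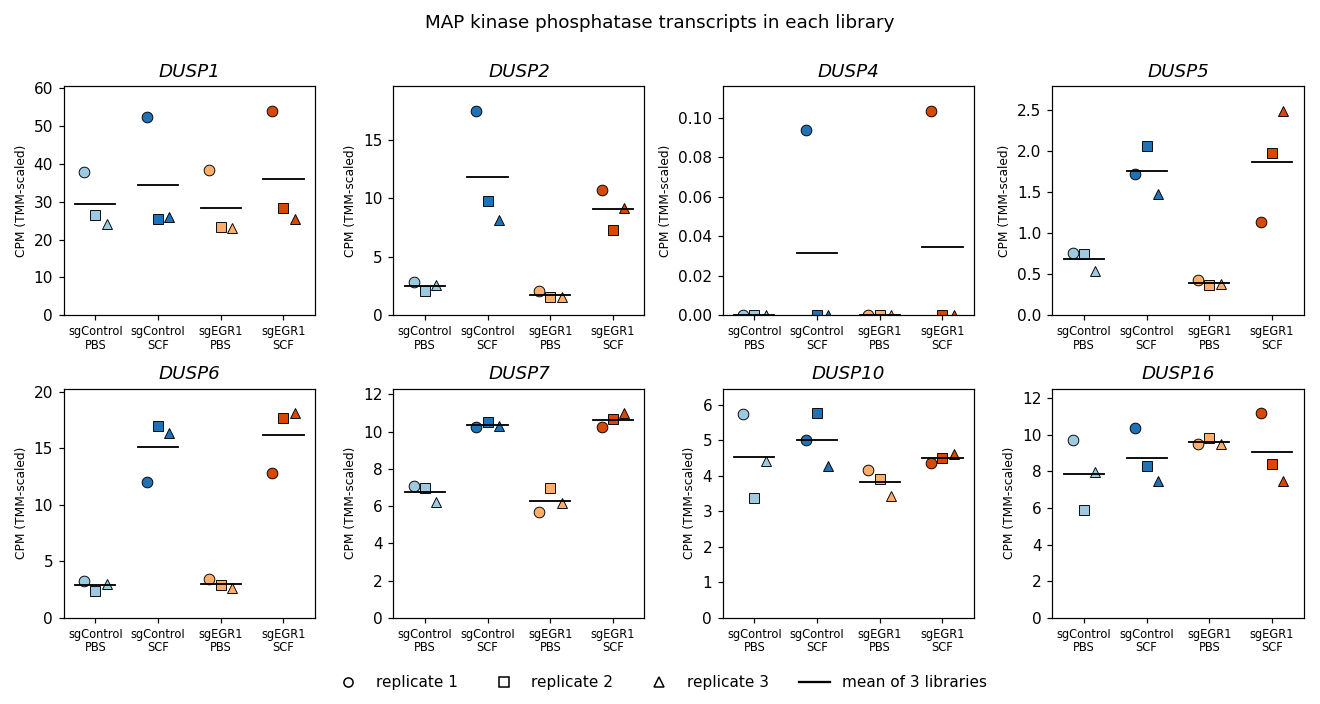
CPM of the 8 members (vertical axes, each starting at 0) in the 12 libraries, arranged by guide and treatment, with a symbol for each replicate number and a bar at the mean. DUSP2, DUSP5, DUSP6 and DUSP7 separate PBS from SCF without overlap, DUSP1 separates replicate 1 from the other replicates, and DUSP4 has counts in 2 libraries.

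DUSP1 (chromosome 5, 172768096 to 172771195 on the minus strand, ENSG00000120129.6) encodes the founding member of the family, an immediate early phosphatase that dephosphorylates ERK, JNK and p38. It held 37.9, 26.5 and 24.1 CPM in sgControl PBS and 52.4, 25.3 and 25.9 CPM in sgControl SCF. In sgEGR1 cells it held 38.4, 23.3 and 23.1 CPM after PBS and 54.1, 28.3 and 25.4 CPM after SCF. The PBS and SCF libraries overlapped under both guides, and replicate 1 was the highest in every group. After SCF the log2 fold change was 0.23 (SE 0.347, edgeR adjusted p 0.865) in sgControl cells, with a 95% interval of -0.53 to 0.98, and 0.35 (SE 0.348, edgeR adjusted p 0.729) in sgEGR1 cells, with an interval of -0.41 to 1.11. It was -0.20 in sgControl cells without sgControl SCF replicate 1 and -0.07 in sgEGR1 cells without sgEGR1 SCF replicate 1. With a term for replicate 1 in the model, the log2 fold change was 0.18 (SE 0.0894, edgeR adjusted p 0.274) in sgControl cells and 0.31 (SE 0.0896, edgeR adjusted p 0.0480) in sgEGR1 cells, where 8.56% of all genes tested were called. Averaged over both guides, DUSP1 differed by 0.25 with that term (SE 0.0633, edgeR adjusted p 0.0162, with 18.5% of all genes called) and by 0.29 without it (SE 0.246, edgeR adjusted p 0.561). From replicates 2 and 3 only, it was 0.018 in sgControl cells, 0.21 in sgEGR1 cells and 0.11 in the average (edgeR adjusted p 0.947, 0.159 and 0.219). Leaving out the library labeled sgEGR1 SCF replicate 3 gave 0.55 in sgEGR1 cells and 0.39 in the average (edgeR adjusted p 0.619 and 0.436).

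DUSP10 and DUSP16, the members that prefer JNK and p38, were not called. DUSP10 (chromosome 1, 221701424 to 221742089 on the minus strand, ENSG00000143507.18) held 5.74, 3.39 and 4.42 CPM in sgControl PBS and 5.00, 5.77 and 4.27 CPM in sgControl SCF. In sgEGR1 cells DUSP10 held 4.17, 3.91 and 3.42 CPM after PBS and 4.35, 4.51 and 4.62 CPM after SCF. The groups overlapped in sgControl cells but not in sgEGR1 cells. The log2 fold change of DUSP10 was 0.15 (SE 0.182, 95% interval -0.25 to 0.55) and 0.23 (SE 0.184, 95% interval -0.17 to 0.63), with edgeR adjusted p of 0.816 and 0.640. DUSP16 (chromosome 12, 12473282 to 12562863 on the minus strand, ENSG00000111266.9) held 9.72, 5.91 and 7.99 CPM in sgControl PBS and 10.4, 8.30 and 7.45 CPM in sgControl SCF. In sgEGR1 cells DUSP16 held 9.50, 9.84 and 9.49 CPM after PBS and 11.2, 8.43 and 7.49 CPM after SCF. These groups overlapped under both guides. The log2 fold change of DUSP16 was 0.14 (SE 0.192, 95% interval -0.27 to 0.56) and -0.09 (SE 0.190, 95% interval -0.50 to 0.33), with edgeR adjusted p of 0.834 and 0.904. From replicates 2 and 3 only, DUSP10 differed by 0.36 and 0.32 (edgeR adjusted p 0.378 and 0.402) and DUSP16 by 0.18 and -0.28 (edgeR adjusted p 0.609 and 0.327). In sgEGR1 cells without the library labeled sgEGR1 SCF replicate 3, the values were 0.21 for DUSP10 and 0.032 for DUSP16 (edgeR adjusted p 0.783 and 0.978). The intervals leave room for a change of up to 0.63 on the log2 scale in DUSP10 and 0.56 in DUSP16, below the fitted responses of DUSP2, DUSP5 and DUSP6.

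DUSP4 (chromosome 8, 29333064 to 29350684 on the minus strand, ENSG00000120875.9), the remaining inducible nuclear member, had 3 counts in sgControl SCF replicate 1, 3 counts in sgEGR1 SCF replicate 1 and 0 counts in the other 10 libraries. It was at or under the limit of detection throughout and was not tested. The other classical MAP kinase phosphatases, DUSP8 and DUSP9, were not tested either, with 0 counts for DUSP8 in all 12 libraries and at most 5 counts for DUSP9.

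Non-overlap of the groups, which needs no model, was observed for 4 of 7 members in sgControl cells and 5 of 7 in sgEGR1 cells, DUSP10 being the added one, where 19.6% and 21.2% of all genes tested had groups that did not overlap. An exact two-sided permutation test on log2 CPM gave p 0.1 for each of these members. With 6 libraries against 6, the average over both guides called the same 4 members higher and 0 lower, where 9.03% of all genes tested were called and 5.58% were called higher. The fitted average log2 fold change was 2.42 (SE 0.132) for DUSP6, 2.32 (SE 0.199) for DUSP2, 1.80 (SE 0.215) for DUSP5 and 0.69 (SE 0.0693) for DUSP7. Without the library labeled sgEGR1 SCF replicate 3, these averages were 2.38, 2.32, 1.67 and 0.68, and all 4 were called. The average was 0.19 (SE 0.130) for DUSP10 and 0.03 (SE 0.135) for DUSP16, neither called. Over single libraries left out, these ranged from 0.11 to 0.30 and from -0.061 to 0.12.

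To ask whether targeting the site near EGR1 altered these transcripts, sgEGR1 was compared with sgControl under each treatment. No member was called in either comparison (edgeR), nor was any other gene (0% of genes tested, with 715 genes after PBS and 361 after SCF at an unadjusted p under 0.05). EGR1, the check of the guide, was not called either. Its log2 difference was -2.59 after PBS (SE 0.801, edgeR p 0.00721, adjusted p 0.999). After SCF it was -1.03 (SE 0.450, edgeR p 0.0406), the library labeled sgEGR1 SCF replicate 3 included. The absence of calls therefore does not show that the guide left the members unchanged. With DESeq2, 0 members were called in these comparisons, and 19 and 4 genes overall. After PBS, every sgEGR1 library lay below every sgControl library for DUSP5 and DUSP2. DUSP5 averaged 0.394 ± 0.0281 CPM in sgEGR1 PBS against 0.683 ± 0.122 CPM in sgControl PBS, a log2 difference of -0.79 (SE 0.337, edgeR p 0.0366, adjusted p 0.999, range of adjusted p over the alternatives 0.428 to 1). These values rest on 10 to 11 counts per library in sgEGR1 PBS and 14 to 21 in sgControl PBS. DUSP2 averaged 1.71 ± 0.287 CPM against 2.48 ± 0.392 CPM, a log2 difference of -0.54 (SE 0.298, edgeR p 0.0967, adjusted p 0.999). The guides did not overlap for 2 of 7 members, against 9.31% of all genes tested. The other 5 members overlapped, with log2 differences of -0.24 (DUSP10), -0.11 (DUSP7), -0.07 (DUSP1), 0.05 (DUSP6) and 0.29 (DUSP16).

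After SCF, the groups overlapped for all 7 tested members (7.14% of all genes tested did not overlap). The log2 differences of sgEGR1 from sgControl were -0.38 (SE 0.253) for DUSP2, -0.16 (SE 0.181) for DUSP10, 0.04 (SE 0.0957) for DUSP7, 0.05 (SE 0.190) for DUSP16, 0.06 (SE 0.344) for DUSP1, 0.10 (SE 0.271) for DUSP5 and 0.10 (SE 0.167) for DUSP6. Without the library labeled sgEGR1 SCF replicate 3, the difference was -0.39 for DUSP2, -0.18 for DUSP10, 0.015 for DUSP7, 0.17 for DUSP16, 0.25 for DUSP1, -0.17 for DUSP5 and 0.012 for DUSP6, and no member was called. The replicate block, which applies here because same-numbered libraries deviated together, called 0 members and 2 genes in each of the comparisons of guides. With it, DUSP5 differed by -0.80 and DUSP2 by -0.53 after PBS (edgeR adjusted p 0.476 and 0.393), and DUSP2 by -0.34 after SCF (edgeR adjusted p 0.869).

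Whether the response to SCF itself differed between guides was tested as an interaction, subtracting the sgControl log2 fold change from the sgEGR1 one. No member and no other gene was called (0% of genes tested by edgeR, 306 at an unadjusted p under 0.05, and 2 genes by DESeq2, none of them a member). The largest estimate was that of DUSP5 at 0.89 (SE 0.431, 95% interval -0.05 to 1.83, edgeR p 0.0621, adjusted p 1), which fell to 0.62 without the library labeled sgEGR1 SCF replicate 3. For DUSP6 the difference was 0.05 with an interval of -0.51 to 0.61, for DUSP2 0.15 (-0.69 to 1.00) and for DUSP7 0.15 (-0.15 to 0.46). Without that library these differences were -0.037, 0.15 and 0.13, and none was called. For DUSP1, DUSP10 and DUSP16 the difference was 0.12 (SE 0.491), 0.08 (SE 0.259) and -0.23 (SE 0.270). Over single libraries left out, the values for DUSP1, DUSP10 and DUSP16 ranged from -0.29 to 0.56, -0.13 to 0.25 and -0.42 to -0.064.

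Replicate 1 was compared with replicates 2 and 3 within groups. Neither labels nor headers name a day or a batch for these numbers. DUSP1, DUSP2 and DUSP16 were called higher in replicate 1, which makes 3 of 7 tested members called, all of them higher, against 26.6% of all genes called and 13.1% called higher. For DUSP1, replicate 1 averaged 45.7 CPM (4 libraries) and replicates 2 and 3 averaged 25.2 CPM (8 libraries), without overlap, a log2 difference of 0.85 (SE 0.0648, edgeR adjusted p 1.33e-06). Its offset was 0.58 and 0.73 in the PBS groups and 1.03 and 1.01 in the SCF groups. DUSP2 differed by 0.56 (SE 0.122, edgeR adjusted p 0.00438), and this call was lost without sgControl SCF replicate 1 (0.36, edgeR adjusted p 0.0607). DUSP16 differed by 0.34 (SE 0.0977, edgeR adjusted p 0.0201), and this call was lost without sgControl PBS replicate 1 (edgeR adjusted p 0.0923), sgControl SCF replicate 1 (0.0841) or sgEGR1 SCF replicate 1 (0.0953). DUSP6 was not called (-0.19, SE 0.124, edgeR adjusted p 0.301), and its offset was 0.26 and 0.30 in the PBS groups and -0.47 and -0.48 in the SCF groups. DUSP5, DUSP7 and DUSP10 were not called either (-0.22, -0.05 and 0.17, edgeR adjusted p 0.534, 0.657 and 0.358). Whether the offset of replicate 1 depends on SCF was not tested.

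**Figure D4:**
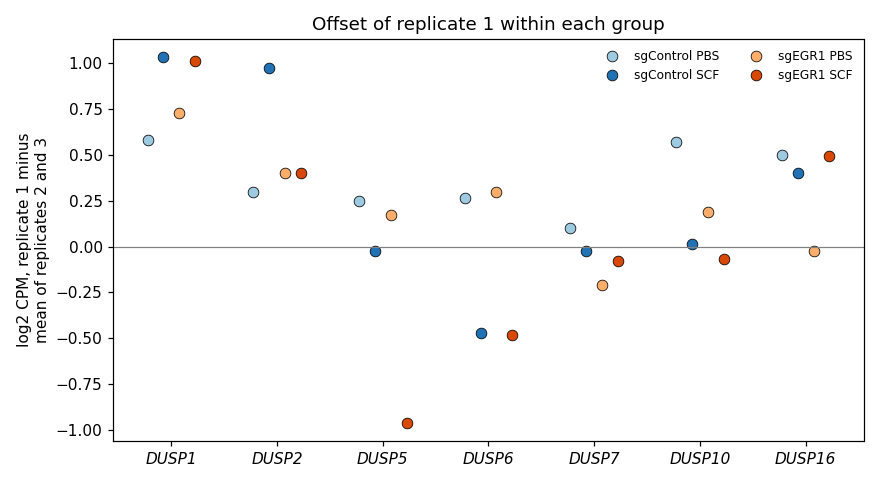
Log2 CPM of replicate 1 minus the mean of replicates 2 and 3 (vertical axis) for the 7 tested members, with 1 point per group. The 4 points of DUSP1 lie between 0.58 and 1.03, those of DUSP2 are all above 0, and those of DUSP6 lie above 0 in the PBS groups and below 0 in the SCF groups.

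The transcripts with the most similar profiles over the 12 libraries were named for the 4 members that rose, by the smallest root mean square difference of log2 CPM after centering each gene, among 9857 other genes of at least 5 CPM on average. For DUSP6 these were EGR2 (0.294), FOSL1 (0.372) and TNFRSF12A (0.415), of which EGR2 and FOSL1 encode inducible transcription factors and TNFRSF12A the receptor of the cytokine TWEAK. The median over all genes compared was 1.21. For DUSP2 they were TNFRSF12A (0.270), CSRNP1 (0.443) and SKIL (0.483), with a median of 1.18. For DUSP5 they were IER2 (0.366), TNFRSF12A (0.426) and SRF (0.428), with a median of 0.898. For DUSP7 they were NIP7 (0.0992), PDXP (0.107) and SLC25A25 (0.108), with a median of 0.366. Among the members themselves, the closest profiles were DUSP10 and DUSP16 (0.283), and the closest among those that rose were DUSP2 and DUSP6 (0.483). This is a description over libraries that share treatment and replicate number.

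To place the members in their pathway, 6 further gene lists were examined. A list of atypical and related dual specificity phosphatases held 23 symbols, SSH1, SSH2, SSH3, STYX and STYXL1 among them. Of these symbols, 20 had a row in the count table and 13 were tested. None was called under either guide (median log2 fold change 0.01 in sgControl and -0.01 in sgEGR1 cells). Of the MAP kinases themselves, 11 of 14 were tested and 1 was called under each guide, MAPK6 (ERK3), which rose by 0.52 (SE 0.107, edgeR adjusted p 0.0227) in sgControl cells, from 31.9 to 45.8 CPM. In the relay from Kit to ERK, 0 of 19 tested genes were called under either guide. Of 15 tested kinases upstream of JNK and p38, 0 were called in sgControl cells and 1 fell in sgEGR1 cells, MAP3K1 (-0.30, SE 0.0624, edgeR adjusted p 0.0250), named after its value was seen.

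Of 16 tested inhibitors of receptor and RAS signaling other than phosphatases of MAP kinases, 4 rose and 0 fell in sgControl cells, and 3 rose and 0 fell in sgEGR1 cells. Among the genes called in sgControl cells, the largest changes were those of SPRY2 (1.30, SE 0.237, edgeR adjusted p 0.0127, from 1.26 to 3.11 CPM), a Sprouty inhibitor of RAS to ERK signaling, and CISH (0.88, SE 0.135, edgeR adjusted p 0.0043, from 24.5 to 45.1 CPM), a cytokine-induced inhibitor of STAT5. The others, named after their values were seen, were SPRY1 (0.83, edgeR adjusted p 0.0175) and SOCS2 (0.54, edgeR adjusted p 0.0231). SPRY1 differed by 0.54 in sgEGR1 cells (edgeR adjusted p 0.118) and was called in the average (0.68, edgeR adjusted p 0.00296), with an interaction of -0.29 that was not called. Of 20 tested transcripts known to be induced by ERK, 13 rose in sgControl cells and 12 in sgEGR1 cells, and 0 fell. EGR1 (4.66, SE 0.553, edgeR adjusted p 0.000834) was among them. EGR3 is also counted, but it was at 0 in all PBS libraries and averaged 0.539 CPM in sgControl SCF. It passed the filter on low counts only through the SCF groups, so no fold or test is given for it here. The median log2 fold change of the 20 tested ERK-induced transcripts, EGR3 included, was 0.86 under either guide. That of the inhibitors was 0.33 in sgControl and 0.26 in sgEGR1 cells, beside 0.61 and 0.76 for the 7 tested members.

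**Figure D5:**
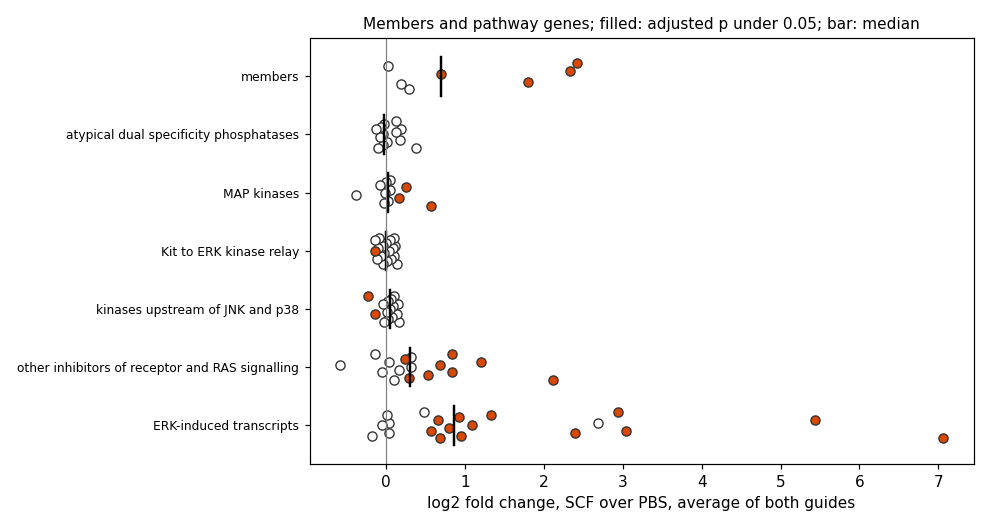
Log2 fold change of SCF over PBS, averaged over both guides (horizontal axis), for the 7 tested members and the tested genes of 6 pathway lists (rows, with vertical jitter for legibility). Filled points have an adjusted p under 0.05 and bars mark medians. Called genes lie to the right of 0 among the members, the MAP kinases (3 genes), the inhibitors and the transcripts induced by ERK. The filled points of this last row include EGR3, which was at 0 in all PBS libraries. EGR3 passed the filter on low counts only through the SCF groups, so its position and fill are not read as a result. Left of 0, 1 gene of the relay from Kit to ERK and 2 kinases upstream of JNK and p38 are filled. No gene in the row of atypical dual specificity phosphatases is filled.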

How the data were processed

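RNA-seq libraries of 12 samples in 4 groups of 3, grouped by their labels, were examined. Reads had been aligned with HISAT to hg38, and the authors deposited StringTie estimated counts for each gene, unscaled for depth or length, and the submitters' processing notes list bcl2fastq, HISAT2 and SAMtools. The annotation release, the handling of multi-mapping reads and the use of strand in counting were not given in the sources used here. Different library kits are named in the labels and in the methods. Of the deposited estimated counts, 0 were not whole, so that rounding changed none, and 0 columns of per-sample values were left out. The methods call the samples biological replicates and the labels name no separate cultures, so p-values measure the spread between these samples. Every replicate pair differed by more than sampling noise (smallest chi-square per degree of freedom 4.36). The column code of the sgEGR1 libraries is not that name and was assigned because the labels hold only sgControl and sgEGR1.

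Counts were filtered with filterByExpr, scaled with TMM factors and tested by quasi-likelihood (edgeR 4.0.16, R 4.3.3) in a fit of all 12 libraries with a coefficient for each group. The threshold for calls was 0.05 on Benjamini-Hochberg adjusted p over all 15492 genes tested. Intervals are 95% intervals from the fitted SE. CPM per kilobase uses the union of exons in GENCODE v44. Alternatives were RLE factors, no filter, DESeq2 1.42.0 (the tool of the study), a replicate block, a replicate 1 term, replicates 2 and 3 only, the compared groups only, and leaving out each library. A replicate 1 term without the library labeled sgEGR1 SCF replicate 3 was added after seeing the data. Between guides, residuals of same-numbered libraries (replicates 1, 2, 3) correlated at 0.232, 0.103, 0.119 in PBS and 0.269, 0.102, 0.126 in SCF. Each lies over 0.1, so blocked values are given beside the comparisons of guides, whose main values come from the fit without a block. In simulated counts with 200 genes changed 2-fold, edgeR recovered 136 for SCF in sgControl cells, with 5 false calls among 15167 genes. The interaction simulated the same way gave 117 recovered and 5 false of 15171. Neither an offset of replicate 1 nor a library whose EGR1 level goes against its label was simulated, so these figures do not cover them.

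The members, lists and the rule for named genes were chosen with earlier results of these data known. The rule names every member in every comparison, EGR1 as the check of the guide, up to 3 genes of the closest profile for each member called under either guide, and for each list the 2 called genes with the largest log2 fold change per direction in sgControl cells. The sgControl guide sequence is not reported here.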

Additional observations from a re-analysis of the deposited data

How the results depend on the processing

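Of the values of the 7 tested members under the alternatives, 874 kept their direction and their side of the threshold, 12 lost a call, 5 gained one and 40 changed sign, none of the last with a call. The calls of DUSP2, DUSP6 and DUSP7 for SCF held under every alternative, and that of DUSP5 in sgControl cells was lost with the compared groups only (adjusted p 0.0509) and without 7 single libraries. The count of all genes called moved more, and the cause was not tested. For SCF in sgControl cells, SCF in sgEGR1 cells and their average, it was 1184, 1235 and 2799 with the replicate block and 1289, 1326 and 2868 with a replicate 1 term. DESeq2 called 784 and 790 in sgControl and sgEGR1 cells, replicates 2 and 3 only gave 690 in sgEGR1 cells, and the compared groups only gave 192 and 250. Between guides after PBS, after SCF and for the interaction, DESeq2 called 19, 4 and 2, and replicates 2 and 3 only called 3, 2 and 2. Between guides after PBS and after SCF, the replicate block called 2 and 2 and the replicate 1 term 4 and 2, and no filter called 1 after PBS. With the replicate 1 term and without the library labeled sgEGR1 SCF replicate 3, a setting chosen after seeing the data, the counts were 1186, 778 and 2442 for SCF and 51, 38 and 2 for the guides. Between PBS and SCF, replicate 1 libraries deviated together (correlations 0.272 and 0.230), while correlations of replicates 2 and 3 ranged from 0.0077 to 0.108, so the numbers were not taken as pairs there. The replicate block changed 1 call among members, DUSP1 in the average (0.25, adjusted p 0.0196).

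Leaving out 1 library at a time, genes called ranged from 194 to 448 for SCF in sgControl cells, 176 to 428 in sgEGR1 cells, 1032 to 1408 in the average, 2863 to 3900 for replicate 1, 0 to 1 between guides after PBS, 0 to 2 after SCF and 0 to 2 for the interaction, and members called ranged from 3 to 4, 4 to 4, 4 to 4 and 1 to 3 in the first 4 of these, with 0 in the others. Log2 fold changes that changed sign, none called, ranged for SCF in sgControl cells from -0.20 to 0.45 (DUSP1), -0.020 to 0.36 (DUSP10) and -0.024 to 0.33 (DUSP16), in sgEGR1 cells from -0.068 to 0.63 (DUSP1) and -0.27 to 0.032 (DUSP16), and in the average from -0.061 to 0.12 (DUSP16). Between guides they ranged after PBS from -0.35 to 0.15 (DUSP1) and -0.060 to 0.15 (DUSP6), and after SCF from -0.36 to 0.48 (DUSP1), -0.13 to 0.19 (DUSP16), -0.59 to 0.012 (DUSP2), -0.17 to 0.35 (DUSP5) and -0.042 to 0.25 (DUSP6). The interaction ranged from -0.29 to 0.56 (DUSP1), -0.13 to 0.25 (DUSP10), -0.053 to 0.55 (DUSP2) and -0.091 to 0.19 (DUSP6), and replicate 1 against the others from -0.35 to 0.092 (DUSP5). With replicates 2 and 3 only, DUSP16 in the average was -0.050 and DUSP10 in the interaction -0.045. With the replicate 1 term and without the library labeled sgEGR1 SCF replicate 3, DUSP5 between guides after SCF was -0.16 and DUSP6 in the interaction -0.0038. Depth limits DUSP4, at 0 to 3 counts per library, and DUSP5, the lowest tested member, at 10 to 80.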

Other observations

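The 3′ untranslated regions of the members differ in length and in the pentamer ATTTA, the core of AU-rich elements that mark many short-lived mRNAs. In the canonical transcripts (GENCODE v44), DUSP1 holds 4 copies in 669 bases (5.98 per kilobase, the 94.1 percentile of 19180 coding genes in the table) and DUSP2 holds 3 in 657 bases (4.57 per kilobase, 88.7 percentile). DUSP10 holds 3 in 991 bases and DUSP16 8 in 3554 bases. DUSP6 holds 1 in 2022 bases, and DUSP5 and DUSP7 hold 0 in 1110 and 1899 bases. The median over all of these genes is 1.495 per kilobase. Among the 4 members that rose after SCF, DUSP2 lies above this median and DUSP5, DUSP6 and DUSP7 lie below it. These are counts of letters only, and mRNA stability was not measured.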
